A study of Caenorhabditis elegans with 15 samples.

Results

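The Wnt pathway genes described here are 10: the 5 Wnt ligands of the worm (lin-44, egl-20, cwn-1, cwn-2 and mom-2), 3 Frizzled receptors (mom-5, mig-1 and lin-17), the beta-catenin bar-1 and the TCF/LEF transcription factor pop-1. They were picked by name for their place in the pathway, at a time when earlier results of these data were known. A gene was read from probe sets annotated to its symbol alone, of which 13 cover the 10 genes, and led by the one with the highest mean over all arrays. The array has 22548 probe sets other than manufacturer controls and 17118 genes with a probe set of their own.

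RNA of whole Caenorhabditis elegans was hybridised to Affymetrix arrays, 3 for each of 5 groups: eat-2 mutants on rapamycin, eat-2 mutants on vehicle, N2 wild type on rapamycin, N2 on allantoin and N2 on vehicle. All groups received 2% DMSO, the drugs being dissolved in it, and all began treatment at the L4 moult and were collected after 72 h at 20 °C. The arrays ask what rapamycin, an inhibitor of the TOR kinase, and allantoin, a product of purine breakdown, do to gene expression beside dietary restriction. The eat-2 gene encodes a subunit of a pharyngeal acetylcholine receptor, and its mutant, which eats less, stands for that restriction. The study gives the mutant strain as DA465 and the labels name no allele, and no eat-2 worms on allantoin were analysed here. Neither the labels nor the study's methods say whether the 3 samples of a group were separate cultures, so the p-values measure the spread between these samples. Its account of the arrays also does not say whether their plates held FUDR, a blocker of DNA synthesis that stops embryo production.

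Wnts are secreted lipid-modified proteins. In the canonical branch they bind Frizzled receptors and keep beta-catenin from being destroyed, and beta-catenin then joins TCF/LEF factors on their target genes. In C. elegans the pathway is best known from development, where it polarises dividing cells, steers migrating neuroblasts and growing axons, and specifies endoderm in the early embryo. A whole adult holds several sources of these transcripts, among them neurons, epidermis, muscle, the germline and the embryos in the uterus. In such bulk samples fewer cells of a type and less RNA per cell cannot be told apart.

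Levels are log2 RMA signals, and a difference of 1 is a 2-fold change. A gene was called when its limma p, adjusted by Benjamini-Hochberg over all probe sets, was under 0.05. All 10 lead probe sets had a mean over the arrays above 5.14, the level under which the dimmest 25% of probe sets fall. The names of 6 of them end in _s_at, the manufacturer's mark for probes that can bind more than 1 transcript. The N2 vehicle arrays were more spread than the others, with correlations of 0.9669 to 0.9815 between them against at least 0.9905 within the other groups, and a median SD over probe sets of 0.21 against 0.0949 to 0.121. Among the 10 genes the median SD was 0.341 in N2 vehicle worms and between 0.0669 and 0.123 elsewhere. The eat-2 probe set had means of 5.35 (SD 0.13) in eat-2 vehicle and 5.48 (SD 0.077) in N2 vehicle worms, a log2 change of -0.12 (adjusted p = 0.75). With the kind of lesion in this strain and the position of the probes not given in the sources used here, that level does not check the labels.

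The clearest differences among the Wnt genes separated N2 worms on rapamycin from N2 on allantoin and from eat-2 on rapamycin. Most probe sets of the array were called in those comparisons too. Against N2 worms on allantoin, 9 of the 10 genes were called, where 61.3% of all probe sets were. In that comparison lin-44, cwn-1, mig-1, lin-17 and bar-1 were higher on rapamycin, a direction taken by 27.8% of all probe sets, and cwn-2, mom-2, mom-5 and pop-1 were lower, as were 33.5%. The eat-2 mutants on rapamycin differed from N2 on rapamycin in 8 genes, against 58% of all probe sets, with mom-2, mom-5 and pop-1 higher in eat-2, as were 32.1% of all probe sets, and lin-44, cwn-1, mig-1, lin-17 and bar-1 lower, as were 25.8%. Both comparisons contain the same N2 rapamycin arrays, so a gene that stood out there enters both.

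Fewer Wnt genes passed against the vehicle of the same strain. Rapamycin in eat-2 changed 2 of the 10, mom-2 upward and mig-1 downward, where 13.8% of all probe sets were called, 6.8% upward and 7.03% downward. In N2 it changed 1, lin-17, which was higher, where 9.38% were called, 5.71% upward. Those shares do not set the Wnt genes apart from the array as a whole. N2 worms on allantoin and eat-2 worms on vehicle each gave 0 called genes against N2 vehicle, where 0% and 0.0399% of all probe sets passed. At an unadjusted limma p under 0.05 the numbers were 5 and 0 of the 10, beside 19.8% and 7.59% of all probe sets, and an unmoderated equal-variance test with adjustment gave 0 in both.

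The response to rapamycin differed between the strains for 6 of the 10 genes, when tested as an interaction over the 12 arrays of the 4 groups, against 24.4% of all probe sets. For mom-2 and mom-5 the change was more positive in eat-2 than in N2, as it was for 12.1% of all probe sets. For cwn-1, mig-1, lin-17 and bar-1 it was more negative, as for 12.4%. The criterion the study itself applied, more than a 2-fold change at an unadjusted p under 0.05 (here limma's), called fewer of the 10. It called lin-44, mom-2 and bar-1 for N2 rapamycin against N2 allantoin (20.4% of all probe sets) and for eat-2 against N2 on rapamycin (18.7%). In the interaction it called mom-2 and bar-1 (13.7%). It called 0 of the 10 in the comparisons with a vehicle group, at 4.05% of all probe sets for N2 allantoin, 8.41% for N2 rapamycin, 1.52% for eat-2 vehicle and 3.06% for eat-2 rapamycin.

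**Figure D1:**
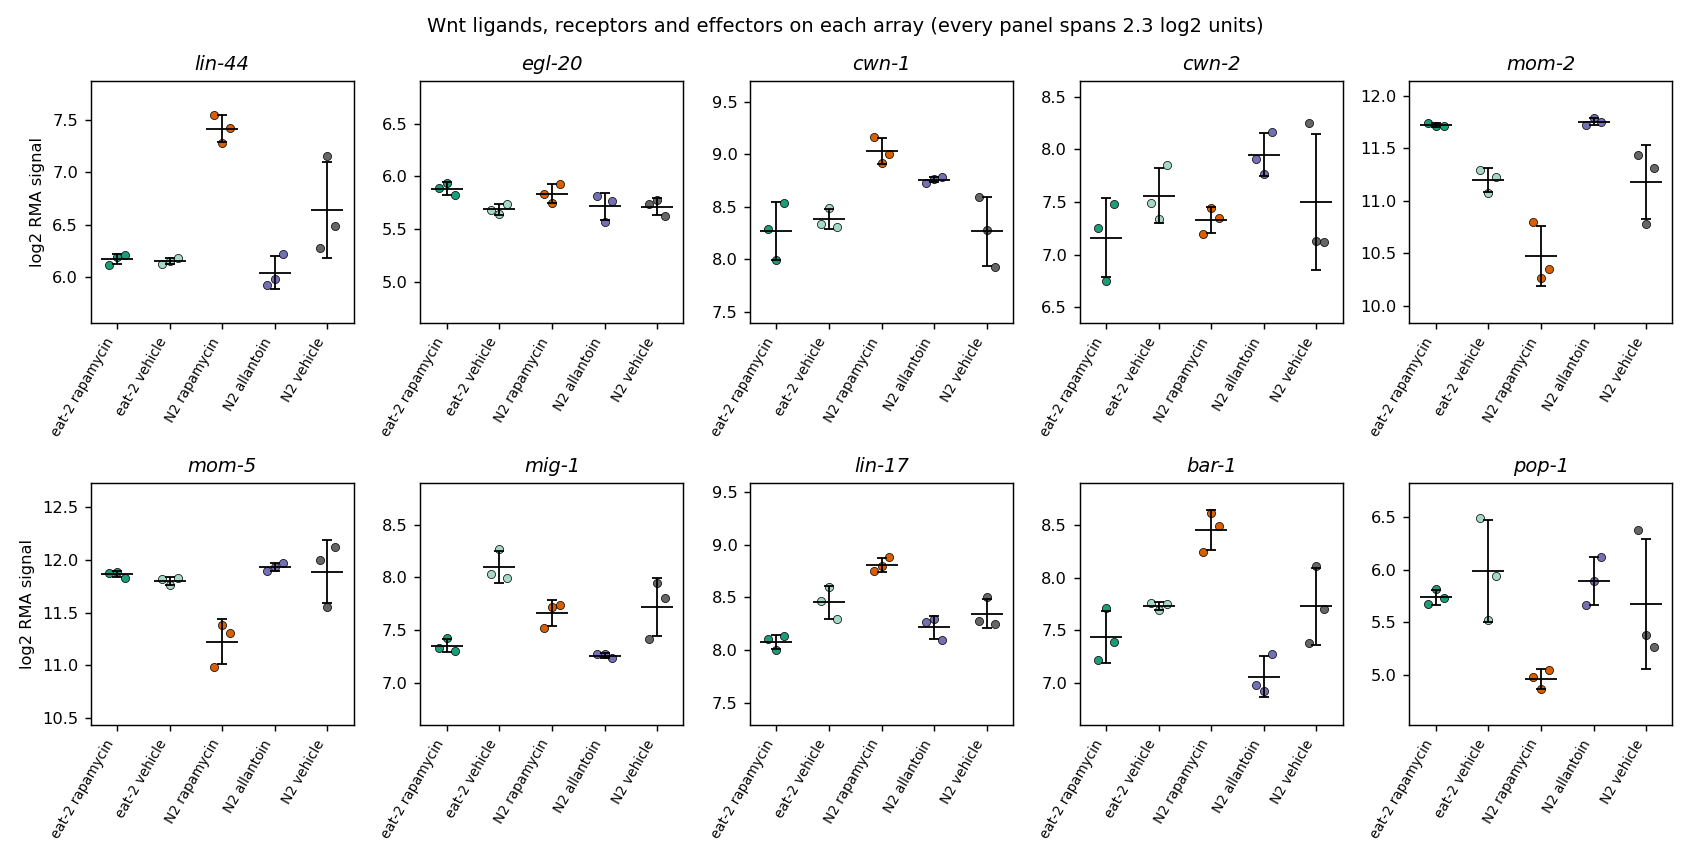
Log2 RMA signal of the lead probe set of each Wnt gene (vertical axis, each panel spanning the same number of log2 units) on the 3 arrays of each group (horizontal axis), with circles for arrays, horizontal bars for group means and error bars for the SD. The N2 rapamycin arrays lie above every other array for lin-44, cwn-1, lin-17 and bar-1 and below every other array for mom-5 and pop-1, while the N2 vehicle arrays spread widely for most genes.

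Among the ligands, mom-2 was highest in eat-2 worms on rapamycin and N2 worms on allantoin and lowest in N2 worms on rapamycin. It encodes the Wnt that the early embryo uses to specify endoderm, and its mRNA is supplied by the mother. The mom-2 signal was 11.74, 11.71 and 11.71 in eat-2 worms on rapamycin, 11.29, 11.07 and 11.23 in eat-2 on vehicle, 10.80, 10.27 and 10.35 in N2 on rapamycin, 11.72, 11.79 and 11.75 in N2 on allantoin, and 11.44, 10.78 and 11.31 in N2 on vehicle. The eat-2 rapamycin and N2 allantoin arrays formed the top of this range, and the N2 rapamycin arrays lay at the bottom, with 1 of them just above the lowest N2 vehicle array. Rapamycin raised mom-2 in eat-2 by 0.52 (SE 0.082, adjusted p = 0.0107), or 1.44-fold, with no overlap between the groups. Without eat-2 rapamycin array 1 the change was 0.52 with an adjusted p of 0.0526, and the call was lost. In N2 the fitted change had the opposite sign and did not pass. It was -0.70 (SE 0.22, adjusted p = 0.0902). The difference between these responses was 1.23 (SE 0.25, adjusted p = 0.0086). Outside the vehicle groups mom-2 passed both comparisons that hold N2 rapamycin. On rapamycin it was 2.37-fold higher in eat-2 than in N2 (log2 change 1.25, adjusted p = 0.000144), and in N2 it fell by 1.28 on rapamycin relative to allantoin (adjusted p = 5.07e-05).

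The ligand lin-44, made in epidermal cells of the tail where it polarises neighbouring cells, ran the other way. It read 6.12, 6.19 and 6.21 in eat-2 on rapamycin, 6.13, 6.15 and 6.18 in eat-2 on vehicle, 7.54, 7.28 and 7.42 in N2 on rapamycin, 5.93, 5.98 and 6.22 in N2 on allantoin, and 6.28, 7.15 and 6.49 in N2 on vehicle. Its N2 rapamycin arrays stood above all others, its N2 vehicle arrays came next, and the other 3 groups overlapped with each other. Between the eat-2 groups the change was 0.02 (95% interval -0.14 to 0.18). The N2 vehicle arrays decided what was seen in the wild type. In N2 rapamycin gave 0.77 (95% interval 0.21 to 1.34, adjusted p = 0.0803), and without N2 vehicle array 2, the one at 7.15, the change was 1.03 (adjusted p = 0.00575). The difference between strains was -0.75 (adjusted p = 0.0539), just short of the threshold, and -1.01 (adjusted p = 0.000426) without that array. Away from those arrays lin-44 gave large differences. Against N2 on allantoin it was 2.58-fold higher on rapamycin (log2 change 1.37, SE 0.11, adjusted p = 8.86e-06), and eat-2 on rapamycin lay 1.24 below N2 on rapamycin (log2 change -1.24, adjusted p = 1.87e-05).

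The ligand cwn-1, which acts with egl-20 and others in neuroblast migration, was also highest in N2 on rapamycin. Its signal was 8.29, 7.99 and 8.54 in eat-2 on rapamycin, 8.34, 8.49 and 8.31 in eat-2 on vehicle, 9.16, 8.92 and 9.0 in N2 on rapamycin, 8.73, 8.76 and 8.78 in N2 on allantoin, and 8.59, 8.28 and 7.93 in N2 on vehicle. Both N2 drug groups thus lay apart from each other and above all N2 vehicle arrays. Rapamycin in N2 gave 0.76 (SE 0.18, adjusted p = 0.0516), which passed without N2 vehicle array 1 (0.92, adjusted p = 0.0294) or array 2 (0.76, adjusted p = 0.0446). No such shift was seen in the mutant. The change in eat-2 was -0.11 (95% interval -0.45 to 0.24), and the difference between strains was -0.87 (adjusted p = 0.0291). That last call was lost without any of 6 arrays, eat-2 rapamycin 1 or 2, eat-2 vehicle 2 or 3, and N2 rapamycin 1 or 3, at adjusted p = 0.051 to 0.0667. The gap between the N2 drug groups was small. Relative to allantoin, cwn-1 rose by 0.27 on rapamycin (adjusted p = 0.0247). Centring each array on its median reduced this to 0.06, and leaving out N2 rapamycin 1 or 3 or N2 allantoin 1 or 2 gave adjusted p = 0.0501 to 0.081.

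The remaining ligands separated the groups less. The ligand cwn-2, which helps to place the nerve ring, had means of 7.16 (SD 0.38) in eat-2 on rapamycin, 7.56 (SD 0.27) in eat-2 on vehicle, 7.33 (SD 0.12) in N2 on rapamycin, 7.95 (SD 0.21) in N2 on allantoin and 7.5 (SD 0.65) in N2 on vehicle. Each group overlapped its neighbour in the order of these means, and N2 vehicle array 1 alone, at 8.25 against 7.13 and 7.12, lay above every allantoin array. Its single call was a fall of 0.62 on rapamycin relative to allantoin in N2 (adjusted p = 0.00174). The ligand egl-20, which directs the migration of a neuroblast toward the tail, had group means between 5.68 and 5.88 and arrays between 5.57 and 5.94. It was called in 0 of the 7 comparisons at an adjusted p under 0.05, and the outer bounds of its 95% intervals were -0.24 and 0.37.

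Of the Frizzled receptors, mig-1 gave the strongest response to rapamycin in the mutant. MIG-1 is a receptor through which EGL-20 guides the Q neuroblast. Its lead probe set read 7.33, 7.42 and 7.30 in eat-2 on rapamycin, 8.03, 8.27 and 7.99 in eat-2 on vehicle, 7.52, 7.72 and 7.74 in N2 on rapamycin, 7.27, 7.27 and 7.23 in N2 on allantoin, and 7.41, 7.95 and 7.80 in N2 on vehicle. The eat-2 vehicle arrays were above all others, and the allantoin arrays were below them all. In eat-2 mig-1 fell by 0.75 on rapamycin (SE 0.097, adjusted p = 0.00653), to 0.596 of its vehicle level, and the second mig-1 probe set fell by 0.80 (adjusted p = 0.00461). In N2 the lead probe set changed by -0.06 on rapamycin (95% interval -0.45 to 0.33). The strains were called different by the lead only. They differed by -0.69 (adjusted p = 0.0289), but the second probe set gave -0.49 (adjusted p = 0.123), and the call of the lead was lost without eat-2 rapamycin 1 or 3, eat-2 vehicle 2, or N2 rapamycin 2 or 3 (adjusted p = 0.0626 to 0.0695). The 2 probe sets also parted between drugs: N2 on rapamycin exceeded N2 on allantoin by 0.40 for the lead (adjusted p = 0.00362) and by 0.07 for the other (adjusted p = 0.717). On rapamycin the lead was 0.31 lower in eat-2 than in N2 (log2 change -0.31, adjusted p = 0.0237), and the other gave -0.17 (adjusted p = 0.236). That call of the lead was also lost without eat-2 rapamycin 1 or 3 or N2 rapamycin 2 or 3 (adjusted p = 0.0679 to 0.0843).

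The receptor lin-17, through which LIN-44 acts on cell polarity in the tail, was highest in N2 on rapamycin and lowest in eat-2 on rapamycin. Its lead probe set read 8.10, 8.0 and 8.13 in eat-2 on rapamycin, 8.47, 8.60 and 8.29 in eat-2 on vehicle, 8.75, 8.80 and 8.88 in N2 on rapamycin, 8.27, 8.29 and 8.09 in N2 on allantoin, and 8.28, 8.5 and 8.25 in N2 on vehicle. The rapamycin arrays lay above their vehicle arrays in N2 and below them in eat-2, with no overlap in either strain. In N2 the rise was 0.47 (SE 0.11, adjusted p = 0.0493), at the edge of the threshold. It was not called without N2 rapamycin 1, 2 or 3 or N2 vehicle 1 or 3 (adjusted p = 0.0842 to 0.181), and its second probe set gave 0.42 (adjusted p = 0.137). In eat-2 the change was -0.38 (SE 0.099, adjusted p = 0.0503). Neither change was far from the threshold, but their difference was. The difference between the strains was -0.85 (SE 0.14, adjusted p = 0.0045), the second probe set gave -0.59 (adjusted p = 0.0451), and the lead's call held with each array left out. On rapamycin lin-17 was 0.73 lower in eat-2 than in N2 (log2 change -0.73, adjusted p = 0.00018), and in N2 it was 1.51-fold higher on rapamycin than on allantoin (adjusted p = 0.000426).

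For mom-5, the Frizzled that works with MOM-2 in the early embryo, the probe sets disagreed. The lead probe set read 11.88, 11.89 and 11.83 in eat-2 on rapamycin, 11.82, 11.76 and 11.83 in eat-2 on vehicle, 10.98, 11.38 and 11.31 in N2 on rapamycin, 11.90, 11.93 and 11.97 in N2 on allantoin, and 12, 11.55 and 12.12 in N2 on vehicle. By this probe set the N2 rapamycin arrays were below all others, and eat-2 changed by 0.07 on rapamycin (adjusted p = 0.565). The second probe set read 6.48, 6.51 and 6.80 in eat-2 on rapamycin against 7.11, 7.19 and 7.36 in eat-2 on vehicle, a fall of 0.63 (adjusted p = 0.0169). In N2 they moved alike, with -0.67 (adjusted p = 0.0687) for the lead and -0.94 (adjusted p = 0.0571) for the second on rapamycin, and their average passed at -0.81 (adjusted p = 0.0494). The interaction was 0.73 (SE 0.20, adjusted p = 0.0272) for the lead and 0.32 (adjusted p = 0.44) for the second, so what the strains did with mom-5 depends on which probes are read. The lead's call was lost in 8 of the 12 fits that leave out an array, those without eat-2 rapamycin 1, 2 or 3, eat-2 vehicle 2 or 3, N2 rapamycin 1 or N2 vehicle 1 or 3 (adjusted p = 0.0501 to 0.0595). Both probe sets passed between N2 rapamycin and N2 allantoin, with -0.71 (adjusted p = 0.000559) and -0.77 (adjusted p = 0.00412), and between eat-2 and N2 on rapamycin, with 0.65 (adjusted p = 0.00182) and 0.54 (adjusted p = 0.0072).

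The effectors bar-1 and pop-1 had some of the widest ranges of the 10 genes. BAR-1 is the beta-catenin of the canonical branch. Its probe set read 7.22, 7.71 and 7.39 in eat-2 on rapamycin, 7.76, 7.69 and 7.75 in eat-2 on vehicle, 8.25, 8.62 and 8.49 in N2 on rapamycin, 6.98, 6.92 and 7.28 in N2 on allantoin, and 7.38, 8.11 and 7.70 in N2 on vehicle. Thus N2 worms on rapamycin and on allantoin lay on opposite sides of every N2 vehicle array. The change in N2 was 0.72 on rapamycin (95% interval 0.22 to 1.22, adjusted p = 0.0723) and -0.67 on allantoin (95% interval -1.17 to -0.17, adjusted p = 0.236). Neither passed, although rapamycin did without N2 vehicle array 2 (0.91, adjusted p = 0.0136) and allantoin without N2 vehicle array 1 (-0.84, adjusted p = 0.0271). Comparisons without N2 vehicle arrays were firmer. On rapamycin bar-1 was 2.62-fold higher than on allantoin in N2 (log2 change 1.39, SE 0.13, adjusted p = 2.25e-05), and it was 1.01 lower in eat-2 than in N2 (log2 change -1.01, adjusted p = 0.000621). In eat-2 the change on rapamycin was -0.30 (adjusted p = 0.18), and -0.43 (adjusted p = 0.0282) without eat-2 rapamycin array 2. It did not reach the threshold with all arrays, but the strains differed in their response by -1.02 (SE 0.26, adjusted p = 0.0192), a call that held with each array left out.

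POP-1 is the only TCF/LEF factor of the worm and can activate or repress its targets. It read 5.67, 5.81 and 5.73 in eat-2 on rapamycin, 6.49, 5.52 and 5.94 in eat-2 on vehicle, 4.98, 4.86 and 5.04 in N2 on rapamycin, 5.66, 5.89 and 6.12 in N2 on allantoin, and 6.38, 5.38 and 5.26 in N2 on vehicle. The N2 rapamycin arrays were below all others, and also below the bound of 5.14, so the size of any change that involves them is uncertain. On rapamycin pop-1 was higher in eat-2 than in N2 by 0.78 (SE 0.089, adjusted p = 0.000165), and in N2 it fell by 0.93 relative to allantoin (adjusted p = 0.000187). The interaction was 0.47 with a 95% interval of -0.43 to 1.36 (adjusted p = 0.43), which does not tell a difference between strains from none.

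**Figure D2:**
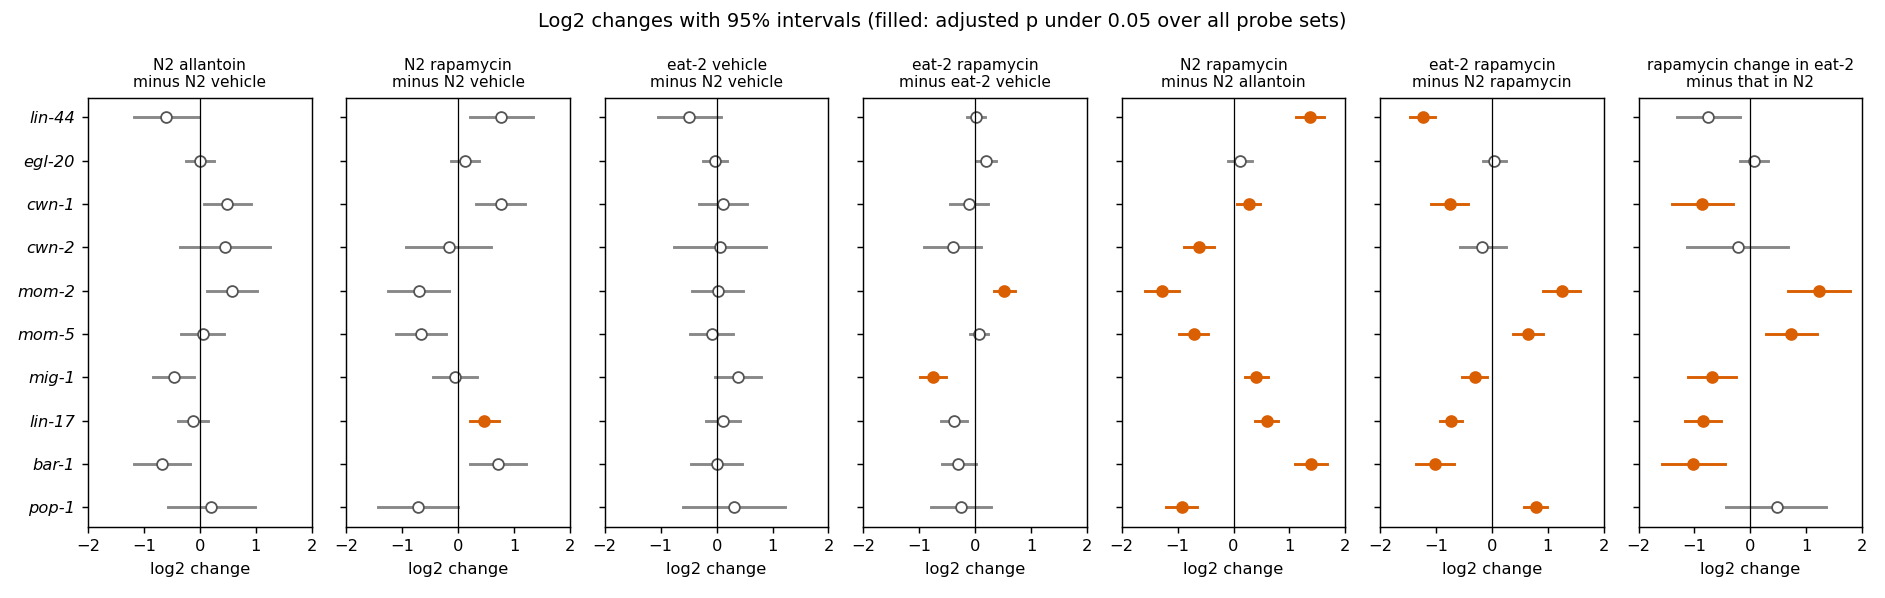
Log2 change of each Wnt gene (horizontal axis) in the 7 comparisons named above the panels, the first group minus the second, with circles for the fitted change and lines for its 95% interval; filled orange circles passed an adjusted p under 0.05 over all probe sets. The intervals are widest where N2 vehicle arrays are part of the comparison, and the calls are most frequent between N2 rapamycin and N2 allantoin (9 of 10 genes) and between the strains on rapamycin (8 of 10).

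Allantoin against vehicle in N2 gave no call, although some genes separated completely. The changes were -0.60 for lin-44, 0.49 for cwn-1, 0.58 for mom-2, -0.46 for mig-1 and -0.67 for bar-1, at adjusted p = 0.236 to 0.249, and each of these genes had allantoin arrays wholly on one side of the vehicle arrays. Such separation was found for 28.8% of all probe sets in this comparison. Without N2 vehicle array 1, 5 genes were called, cwn-1, cwn-2 and mom-2 higher and mig-1 and bar-1 lower, at 20.4% of all probe sets. Between eat-2 and N2 on vehicle the largest changes were -0.49 for lin-44 (SE 0.23, 95% interval -1.04 to 0.07) and 0.38 for mig-1 (SE 0.17, 95% interval -0.03 to 0.79), at adjusted p = 0.675 and 0.668. All eat-2 arrays lay below the N2 arrays for lin-44 and above them for the lead probe set of mig-1. Such a separation was shown by 14.4% of all probe sets in one direction or the other. The lead probe sets of the other 8 genes overlapped. The second mig-1 probe set overlapped here and also between allantoin and vehicle in N2.

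For rapamycin against vehicle in N2 the count rested on single arrays. Without N2 vehicle array 2, 6 of the 10 genes were called, lin-44, cwn-1, lin-17 and bar-1 higher and mom-2 and mom-5 lower, and 30.6% of all probe sets. The fits without N2 rapamycin array 1, 2 or 3 or N2 vehicle array 3 called 0 genes. Of all probe sets they called 0.142%, 0.452%, 0% and 1.44%. Without N2 vehicle array 1 the 1 called was cwn-1, beside 7.77% of all probe sets. N2 vehicle array 2 was the highest of its group for lin-44 and bar-1 and the lowest for mom-2 and mom-5, on the side of the N2 rapamycin arrays each time.

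A further 39 genes of the pathway were read by role, from a list of secretion factors, other receptors and antagonists, Dishevelled and destruction complex proteins, other catenins and nuclear partners, and genes known to be regulated by Wnt signals. In 38 of them the mean lay above 5.14, the exception being the Hox gene egl-5. On rapamycin, 20 of the 39 were higher in eat-2 than in N2 and 10 were lower, beside 32.1% and 25.8% of all probe sets, with a median log2 change of 0.28 against 0.10 over all probe sets. N2 on rapamycin had 8 higher and 22 lower than N2 on allantoin, beside 27.8% and 33.5% of all probe sets, with a median of -0.39 against -0.07. Both comparisons again share the N2 rapamycin arrays.

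The catenins and nuclear partners were called in 1 direction in these comparisons. In N2 on rapamycin 6 of 7 were lower than on allantoin (33.5% of all probe sets), with a median of -1.12, and 6 of 7 were higher in eat-2 than in N2 on rapamycin (32.1% of all probe sets), with a median of 0.97. The 7 are the catenins wrm-1, sys-1 and hmp-2, the kinases lit-1 and mom-4, the TAK1-binding protein homologue tap-1 and the Groucho co-repressor unc-37. Their mean level was 9.30 to 9.45 in eat-2 on rapamycin, 9.24 to 9.47 in eat-2 on vehicle, 8.54 to 8.62 in N2 on rapamycin, 9.49 to 9.56 in N2 on allantoin and 8.87 to 9.56 in N2 on vehicle. The N2 rapamycin arrays were below the other 12. The beta-catenin bar-1 was higher there, so it took the opposite direction to these catenins in both comparisons.

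Upstream of the receptors, 6 of 8 secretion genes were lower in N2 on rapamycin than on allantoin and 5 of 8 were higher in eat-2 than in N2 on rapamycin, the directions of those same 33.5% and 32.1% of all probe sets. The acyltransferase gene mom-1, whose product attaches lipid to Wnts, changed by 1.26 in eat-2 against N2 on rapamycin (adjusted p = 0.000284) and by -1.71 in N2 on rapamycin against allantoin (adjusted p = 1.05e-06). The Van Gogh homologue vang-1, a planar polarity gene, changed by 1.77 (adjusted p = 0.000738) and -2.10 (adjusted p = 3.9e-07) in the same comparisons, and the Dishevelled gene dsh-2 by 1.78 (adjusted p = 6.62e-06) and -1.83 (adjusted p = 1.08e-06). In the opposite direction stood sfrp-1, a secreted Wnt antagonist, with -0.99 (adjusted p = 7.29e-05) and 0.97 (adjusted p = 0.000106), the Hox gene mab-5, with -1.0 (adjusted p = 0.000119) and 1.16 (adjusted p = 8.3e-06), and the homeobox gene ceh-22, with -1.33 (adjusted p = 3.97e-05) and 1.68 (adjusted p = 3.7e-06). The N2 allantoin mean of ceh-22, 5.11, lies below the bound of 5.14, and the size of that last change is uncertain.

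Against the vehicle of the same strain, rapamycin changed different numbers of these 39 genes in each direction. In eat-2 it lowered 6 and raised 0, beside 7.03% and 6.8% of all probe sets. Those lowered were the cadherin fmi-1 (-1.41, adjusted p = 0.0121), the transcription factor tlp-1 (-0.81, adjusted p = 0.0253), the Frizzled cfz-2 (-0.73, adjusted p = 0.0169), the Prickle homologue prkl-1 (-0.61, adjusted p = 0.0456), the casein kinase kin-19 (-0.47, adjusted p = 0.0125) and mab-5 (-0.40, adjusted p = 0.0408). Without eat-2 rapamycin array 1 none of the 6 was called, and without eat-2 vehicle array 1 or 3 the number was 3 or 1. Of all probe sets those fits called 4.45%, 7.73% and 5.15%. Of the Frizzled genes, the lead probe sets of mig-1 and cfz-2 and the second of mom-5 were called lower in the mutant on rapamycin. The lead of mom-5 gave 0.07 (adjusted p = 0.565) and that of lin-17 -0.38 (adjusted p = 0.0503). The cfz-2 call was lost without eat-2 rapamycin array 1 or eat-2 vehicle array 1 or 3. In N2, where 5.71% of all probe sets rose and 3.67% fell, rapamycin raised the Ryk receptor lin-18 (0.60, adjusted p = 0.0354), sfrp-1 (0.68, adjusted p = 0.042), mab-5 (0.72, adjusted p = 0.0447) and the Hox gene lin-39 (0.48, adjusted p = 0.0346), and it lowered the Dishevelled gene mig-5 (-0.89, adjusted p = 0.0363). Each of these 5 calls was lost without N2 rapamycin array 1, 2 or 3 or N2 vehicle array 1 or 3. Their highest adjusted p lay between 0.152 and 0.162. Without N2 vehicle array 2 the number called was 21 of 39, beside 30.6% of all probe sets. The mab-5 changes had opposite signs, and the strains differed by -1.12 (adjusted p = 0.00436), a call that held with each array left out. The interaction called 16 of the 39, 8 in each direction, beside 12.1% of all probe sets upward and 12.4% downward, among them mig-5 (1.21, adjusted p = 0.0041), dsh-2 (1.36, adjusted p = 0.0358) and mom-4 (1.18, adjusted p = 0.0115) upward and sfrp-1 (-1.01, adjusted p = 0.0046) and fmi-1 (-1.11, adjusted p = 0.0196) downward. The dsh-2 call was lost in 8 of the 12 fits that leave out an array (highest adjusted p = 0.0821). The count of the 39 was 10 without eat-2 rapamycin array 1 (15.3% of all probe sets) and 26 without N2 vehicle array 2 (37.8%). Allantoin against vehicle in N2, and eat-2 against N2 on vehicle, gave 0 calls among the 39. At an unadjusted limma p under 0.05 there were 7 and 3, beside 19.8% and 7.59% of all probe sets, and the unmoderated test called 0 and 2 of all probe sets. Without N2 vehicle array 1 the calls were 11 and 1, beside 20.4% and 1.97% of all probe sets.

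**Figure D3:**
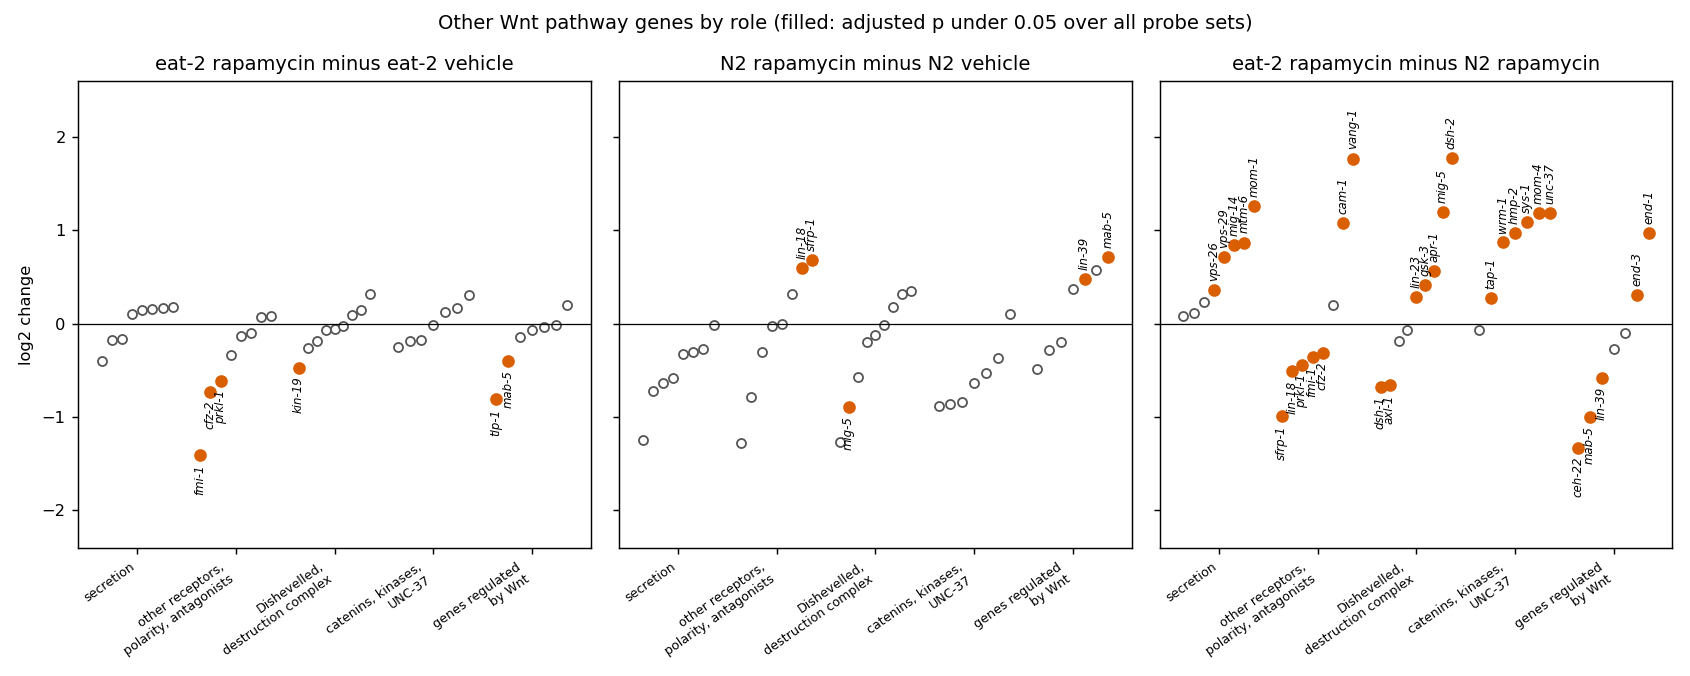
Log2 change (vertical axis) of the 39 other pathway genes, sorted by size within each role (horizontal axis), for rapamycin against vehicle in eat-2, rapamycin against vehicle in N2, and eat-2 against N2 on rapamycin; filled orange circles with names passed an adjusted p under 0.05. Rapamycin in eat-2 lowered 6 genes and raised 0, and on rapamycin 6 of 7 catenins and nuclear partners were higher in eat-2 than in N2.

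Markers of the tissues in a whole worm moved with the same groups. The 18 germline and oocyte genes had a mean level of 11.76 to 11.78 in eat-2 on rapamycin, 11.28 to 11.52 in eat-2 on vehicle, 10.80 to 10.82 in N2 on rapamycin, 11.76 to 11.84 in N2 on allantoin and 11.01 to 11.66 in N2 on vehicle. This is the order in which the mom-2 groups lay. In eat-2 on rapamycin 6 of the 18 were called higher than in eat-2 on vehicle, the comparison in which mom-2 was called. On rapamycin 16 were higher in eat-2 than in N2. In N2 on rapamycin 16 were lower than on allantoin, and the interaction called 13, all more positive in eat-2. Of all probe sets, 6.8%, 32.1%, 33.5% and 12.1% were called in those directions, in the same order. Within N2 vehicle the germline level was 11.66, 11.01 and 11.41 on arrays 1, 2 and 3, and the lowest of these was the array with the lowest mom-2 and mom-5.

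Sperm, neuron, epidermis, muscle and moulting genes were highest on average in N2 on rapamycin, where germline genes were lowest. The 10 measured sperm genes averaged 6.5 to 6.83 in eat-2 on rapamycin, 7.37 to 8.78 in eat-2 on vehicle, 9.95 to 10.27 in N2 on rapamycin, 6.55 to 7.37 in N2 on allantoin and 7.60 to 9.39 in N2 on vehicle. Neuron genes averaged 8.56 to 8.89 in eat-2 on rapamycin, 8.86 to 9.0 in eat-2 on vehicle, 9.48 to 9.55 in N2 on rapamycin, 8.56 to 8.74 in N2 on allantoin and 8.95 to 9.55 in N2 on vehicle. Both lists thus averaged highest in the group that was also highest for lin-44, cwn-1, lin-17 and bar-1. Moulting genes averaged 6.92 to 7.36 in eat-2 on rapamycin, 7.43 to 7.68 in eat-2 on vehicle, 8.99 to 9.32 in N2 on rapamycin, 7.47 to 7.62 in N2 on allantoin and 7.33 to 7.87 in N2 on vehicle. Epidermis genes averaged 8.55 to 8.71 in eat-2 on rapamycin, 8.40 to 8.41 in eat-2 on vehicle, 9.35 to 9.69 in N2 on rapamycin, 8.53 to 8.75 in N2 on allantoin and 8.42 to 9.08 in N2 on vehicle. Body wall muscle genes averaged 9.25 to 9.93 in eat-2 on rapamycin, 9.26 to 9.41 in eat-2 on vehicle, 10.25 to 10.73 in N2 on rapamycin, 9.47 to 9.54 in N2 on allantoin and 9.22 to 10.31 in N2 on vehicle. The N2 vehicle arrays overlapped N2 on rapamycin for muscle and for neurons, where N2 vehicle array 2 averaged 9.55. In eat-2 on rapamycin, where 6 germline genes were called higher than on vehicle, 2 muscle genes were called higher and 0 lower. Epidermis genes gave 2 and 2, moulting genes 1 and 2, and neuron and sperm genes 0 and 1 each. All probe sets gave 6.8% and 7.03%. The sperm genes had a median log2 change of -1.45 there. At the study's threshold 7 of the 10 sperm genes were lower and 0 higher, beside 3.06% of all probe sets in either direction. Against N2 on vehicle, N2 on rapamycin had 7 moulting, 4 epidermis and 2 sperm genes called higher and 0 lower. Germline genes gave 0 and 5, intestine genes 1 and 4, early embryo genes 0 and 1, and neuron and muscle genes 0 and 0. The shares of all probe sets were 5.71% and 3.67%. These marker counts were not refitted with arrays left out. Against N2 on allantoin, N2 on rapamycin had 9 of 10 sperm, 8 of 10 neuron, 8 of 10 moulting, 6 of 10 epidermis and 9 of 10 body wall muscle genes called higher, beside 27.8% of all probe sets, and 2 epidermis genes and 1 neuron gene called lower. In eat-2 against N2 on rapamycin the same lists had 9, 8, 8, 8 and 9 called lower, beside 25.8% of all probe sets, and 2 epidermis genes and 1 neuron gene called higher. Early embryo genes, with 12 of 13 measured, had their lowest mean levels in N2 on rapamycin, as pop-1 did. Those levels were 6.11 to 6.27, against 6.52 or more on every other array. Of the 12, 7 were called higher and 3 lower in eat-2 than in N2 on rapamycin, beside 32.1% and 25.8% of all probe sets. In N2 on rapamycin 2 were higher and 8 lower than on allantoin, beside 27.8% and 33.5%. Intestine genes had a mean of 11.05 to 11.81 over all arrays, and single genes moved both ways. Of 10, 7 were called higher and 3 lower in eat-2 than in N2 on rapamycin (median 0.85). In N2 on rapamycin 6 were higher and 3 lower than on allantoin (median 0.30). All probe sets gave 32.1% higher and 25.8% lower in the first comparison, and 27.8% and 33.5% in the second. All tissue markers had a mean above 5.14 except med-1 of the early embryo. The part of these tissues in the Wnt results was not tested.

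**Figure D4:**
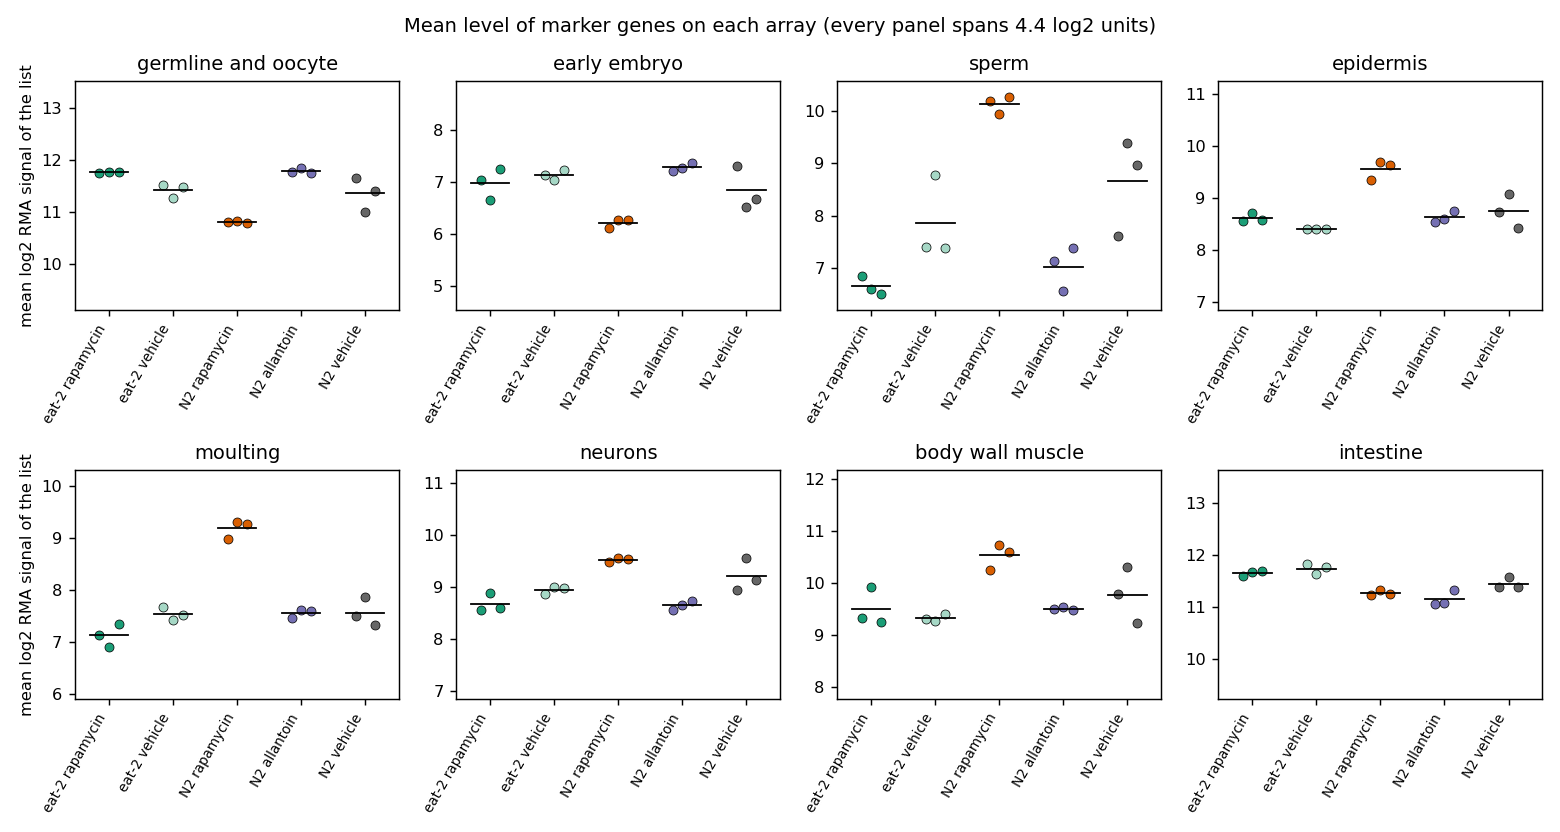
Mean log2 RMA signal of each list of tissue or process markers (vertical axis, each panel spanning the same number of log2 units) on the 3 arrays of each group (horizontal axis), with circles for arrays and bars for group means. N2 on rapamycin has the lowest germline and early embryo levels and the highest sperm, epidermis and moulting levels, and the sperm level spreads from 7.60 to 9.39 over the N2 vehicle arrays.

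The 3 genes with the widest range of group means were bar-1 (1.39), lin-44 (1.37) and mom-2 (1.28). Over the 15 arrays, the genes whose levels ran most like bar-1 among 17117 others were F49E2.2 (r = 0.987), T23F4.2 (r = 0.980) and xbx-9 (r = 0.979). For lin-44 they were the dopamine receptor gene dop-1 (r = 0.986), bus-19 (r = 0.986) and cepr-104.2 (r = 0.985), and for mom-2 Y59A8B.12 (r = 0.991), pzf-1 (r = 0.991) and T22D1.5 (r = 0.987). These values describe 5 groups of 3 arrays, in which any gene that follows the groups scores high, and they carry no test.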

How the data were processed

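The authors normalised the arrays by RMA, run in Affymetrix Expression Console, and deposited log2 values of 22625 probe sets on 15 arrays. No version of that program is given in the sources used here. The 77 manufacturer control probe sets were left out. Values ran from 3.14 to 14.86. Of the other 22548 probe sets, 20766 carry 1 gene symbol in the platform annotation, 887 several and 895 none.

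Each pair of groups was fitted with limma 3.58.1 in R 4.3.3 on its own 6 arrays, since the study's methods compare conditions in pairs, and the interaction on the 12 arrays of 4 groups. All p-values were adjusted by Benjamini-Hochberg over 22548 probe sets, and the number of arrays limits the precision. The fits were tested on simulated data. The 10 genes and all lists were chosen with earlier results of these data known. The text names all 10 Wnt genes with every probe set of their own, of the other pathway genes up to 3 called higher and 3 called lower per comparison by size, and for the 3 genes with the widest range the 3 others of highest Pearson r. The other genes named of the catenin list, the remaining calls of rapamycin against vehicle, and med-1 and egl-5 were added after their values were seen.

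Alternatives were a single fit of all 15 arrays, with and without array weights, the replicate number as a block, no probe sets among the dimmest 25%, arrays centred on their medians, cyclic loess, an unmoderated equal-variance test (the array methods name the program used and no test), the threshold of the study, the mean of the probe sets of a gene, and each array left out, which was extended to the other pathway genes after seeing the data.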

Additional observations from a re-analysis of the deposited data

Results flagged for a closer look

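The log2 change on rapamycin differed between eat-2 and N2 in a test of the difference itself for 6 Wnt genes. The difference, the change in eat-2 minus the change in N2, was 1.23 for mom-2 and 0.73 for mom-5, and it was -0.87 for cwn-1, -0.69 for mig-1, -0.85 for lin-17 and -1.02 for bar-1. For mom-2, lin-17 and bar-1 the call held in all 20 alternatives to the fit, among them each of the 12 arrays left out. The study's threshold, which also asks for more than a 2-fold change, called mom-2 and bar-1 but not lin-17. The call by adjusted p held in 12 of the 20 alternatives for cwn-1 and for mig-1 and in 9 of 20 for mom-5. The germline and oocyte genes differed between the strains in the same way as mom-2 and mom-5, with 13 of 18 called. The sperm and moulting genes differed in the opposite way, with 9 of 10 and 8 of 10 called. Epidermis genes gave 4 more negative and 1 more positive, neuron genes 3 and 0, and body wall muscle genes 1 and 0. Early embryo genes gave 1 and 2, and intestine genes 1 and 3. More positive and more negative differences were called for 12.1% and 12.4% of all probe sets. The part of these marker genes in the Wnt differences was not tested.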

How the results depend on the processing

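The numbers of called Wnt genes moved with the fit, the threshold and single arrays. For N2 allantoin against N2 vehicle, with 0 of 10 called, a single fit of all 15 arrays called 4 (11.2% of all probe sets). The same fit with array weights called 5 (17.3%), and the fits without 1 array 0 to 5 (0% to 20.4%). For N2 rapamycin against N2 vehicle, where 1 was called, these gave 6 (34.5%), 6 (33.6%) and 0 to 6 (0% to 30.6%). The study's threshold, median centring, cyclic loess, the unmoderated test and the replicate block each gave 0. Of all probe sets they called 8.41%, 9.53%, 7.4%, 0.0443% and 0.692%. For eat-2 rapamycin against eat-2 vehicle, where 2 were called, array weights gave 5 (31.6%) and the study's threshold 0 (3.06%). The fits without 1 array gave 1 to 3 there (4.45% to 14.3%). The study's threshold called 3 of the 9 genes between N2 rapamycin and N2 allantoin, lin-44, mom-2 and bar-1, at 20.4% of all probe sets, and 3 of the 8 between eat-2 and N2 on rapamycin at 18.7%. Of the 6 interactions it called 2, at 13.7%, and the unmoderated test called 3 (16.8%). The fits without 1 array gave 8 to 9, 7 to 8 and 3 to 7 for those 3 comparisons, and 0 to 0 for eat-2 vehicle against N2 vehicle, which stayed at 0 throughout. No called gene changed sign under any of these settings, and the median range of group means over the 10 genes, 0.82, moved by less than the median SD within groups of 0.12. Beside the fits without 1 array, single calls ended as follows. The fit of all 15 arrays lost cwn-1 (adjusted p = 0.164) and cwn-2 (0.0684) between the N2 drugs and mom-2 in eat-2 (0.0621). Median centring lost cwn-1 (0.06, adjusted p = 0.535) and mig-1 (0.20, adjusted p = 0.0703) between the N2 drugs, mig-1 on rapamycin between strains (-0.08, adjusted p = 0.475), and the interactions of cwn-1 (0.0578) and mig-1 (0.0509). The mean of the probe sets of a gene lost mig-1 between the N2 drugs (0.101), between strains (0.0812) and in the interaction (0.0586), and the interaction of mom-5 (0.0881). The unmoderated test lost the interactions of cwn-1, mig-1 and mom-5 (0.0507 to 0.0578), and cyclic loess that of mom-5 (0.0526). The rise of lin-17 in N2 was lost under 6 settings, among them the one without the dimmest 25% of probe sets (0.0579), and it passed in the fits of all 15 arrays.

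Median centring moved the median change of all probe sets by -0.20 between N2 rapamycin and N2 allantoin, by 0.23 between eat-2 and N2 on rapamycin and by 0.19 in the interaction. The Wnt calls were then 3 higher and 4 lower, 4 and 4, and 2 and 2. Of all probe sets, 75.2%, 76% and 30.9% were then called in either direction. Relative to that shift egl-20 turned to -0.09 between the N2 drugs, and on rapamycin it was 0.28 higher in eat-2 than in N2 (adjusted p = 0.022). The deviations of arrays with the same replicate number correlated at -0.23 to 0.45 and in no comparison were all above 0.1, so the number was not taken to pair the samples. With the replicate block the count for N2 rapamycin against N2 vehicle was 0 in place of 1, and the counts of the other comparisons were as reported.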
